A study of Homo sapiens with 27 samples.

Results

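Caco2 cells that had become resistant to natural killer (NK) cells and cetuximab were compared with the same population after the pressure was lifted. Caco2 is an established human colorectal adenocarcinoma line, here grown from a single clone, and cetuximab is an antibody against the epidermal growth factor receptor (EGFR) that marks cells for NK attack through the Fc receptor CD16. The comparison takes the 3 withdrawal arrays minus the 3 resistant arrays, 6 of the 27 arrays of the series, over all 17687 genes that 1 named probe set or more could be assigned to. The resistant cells are those that survived 20 cycles of co-culture with NK-CD16 cells and cetuximab at 1 ug/ml. The withdrawal cells are resistant cells grown for another 20 cycles with neither NK cells nor antibody, so both groups share the same history of challenge. The 3 arrays of untreated parental Caco2 cells are the reference level, and the matching withdrawal and resistant arrays of LIM1215 and SW48, a pair of other colorectal cancer lines, were used to ask which changes differ between lines. Nothing in the labels says that the 3 samples of a group were separate cultures, so the p-values measure the spread between these samples, which may be technical.

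NK cells kill through granules of perforin and granzymes and through death ligands, and they release interferon gamma and chemokines. Interferons act on neighbouring cells through JAK and STAT proteins and IRF9, which switch on antiviral effectors and the machinery that loads peptides onto MHC class I. Class I molecules and HLA-E engage inhibitory receptors on NK cells, while stress-induced ligands such as MICB and the ULBP proteins engage the activating receptor NKG2D. Differentiating Caco2 cells are known for expressing small-intestinal brush border genes and several plasma proteins that are otherwise made by the liver.

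Promoters are shown for genes on both sides of the comparison, from lists whose members mostly moved together. Only windows that hold a match to the searched letters are printed. Each window holds the 250 bases before the RefSeq gene start of GRCh38.p14, written 5′ to 3′ on the gene's strand, and stops where the transcript begins. In the first set the capitals mark GAAANNGAA, letters from the core of the interferon-stimulated response element, found on either strand, with overlapping matches merged into 1 run. IFIT1 lies at chr10:89392373-89392622 on the plus strand, IFI6 at chr1:27672193-27672442 on the minus strand, ISG15 at chr1:1013247-1013496 on the plus strand and TAP1 at chr6:32853705-32853954 on the minus strand.
IFIT1: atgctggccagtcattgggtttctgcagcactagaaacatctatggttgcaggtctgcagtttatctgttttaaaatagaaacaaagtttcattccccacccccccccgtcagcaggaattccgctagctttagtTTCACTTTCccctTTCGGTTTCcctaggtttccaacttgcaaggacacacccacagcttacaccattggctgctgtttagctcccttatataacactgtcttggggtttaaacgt
IFI6: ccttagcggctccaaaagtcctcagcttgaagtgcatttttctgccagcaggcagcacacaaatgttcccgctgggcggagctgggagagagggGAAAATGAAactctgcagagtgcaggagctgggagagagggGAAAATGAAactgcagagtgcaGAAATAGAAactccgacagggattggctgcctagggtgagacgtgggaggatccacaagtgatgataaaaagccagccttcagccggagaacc
ISG15: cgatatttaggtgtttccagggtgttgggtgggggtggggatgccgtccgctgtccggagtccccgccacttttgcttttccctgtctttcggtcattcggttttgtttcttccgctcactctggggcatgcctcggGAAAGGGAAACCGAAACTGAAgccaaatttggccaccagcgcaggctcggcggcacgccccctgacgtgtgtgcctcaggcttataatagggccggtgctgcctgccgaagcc
TAP1: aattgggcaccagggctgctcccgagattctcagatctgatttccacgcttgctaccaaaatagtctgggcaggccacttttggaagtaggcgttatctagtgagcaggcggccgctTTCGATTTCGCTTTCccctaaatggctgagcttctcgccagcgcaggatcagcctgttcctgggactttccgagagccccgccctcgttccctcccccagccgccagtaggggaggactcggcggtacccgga
IFIT1 held 2 matches, 115 and 102 bases before the start, and IFI6 held 3, of which the nearest was 93 bases away. The 3 matches of ISG15 overlapped in a row, as did the 2 of TAP1. The motif occurred in 1122 of the 14250 measured genes with a window (7.87%), in 23 of 33 type I interferon genes (69.7%), in 7 of 15 class I genes (46.7%) and in 3 of 19 NK cell markers (15.8%). It stood before 105 of the 698 genes that fell 2-fold or more with withdrawal and before 43 of the 598 that rose as much.

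In the second set, from genes that rose, the capitals mark TGATGNAA, the composite element that ATF4 and its CHOP and C/EBP partners recognise, again on either strand. CHAC1 lies at chr15:40953221-40953470 on the plus strand and ASNS at chr7:97872409-97872658 on the minus strand.
CHAC1: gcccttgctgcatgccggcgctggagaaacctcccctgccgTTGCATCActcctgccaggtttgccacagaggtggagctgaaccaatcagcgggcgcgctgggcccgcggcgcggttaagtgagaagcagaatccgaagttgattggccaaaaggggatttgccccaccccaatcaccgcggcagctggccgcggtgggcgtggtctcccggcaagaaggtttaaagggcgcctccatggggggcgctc
ASNS: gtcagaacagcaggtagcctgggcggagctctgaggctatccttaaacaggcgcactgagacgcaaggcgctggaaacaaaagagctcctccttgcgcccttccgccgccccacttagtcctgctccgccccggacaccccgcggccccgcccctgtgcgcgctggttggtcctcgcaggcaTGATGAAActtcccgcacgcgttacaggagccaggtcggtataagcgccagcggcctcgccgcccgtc
The match was 209 bases before the start of CHAC1 and 68 bases before that of ASNS. It was found in 449 of the 14250 genes (3.15%), in 4 of the 20 stress genes with a window (20.0%; ATF3, CHAC1, ASNS and HERPUD1), in 23 of the 598 genes that rose 2-fold or more (3.85%) and in 22 of the 698 that fell (3.15%). Of the 4 stress genes with a match CHAC1 and ASNS rose with withdrawal, ATF3 fell and HERPUD1 did not pass. A match of letters describes the window and shows no binding.

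Withdrawal changed 4115 of 17687 genes at an adjusted p under 0.05 (23.3%, limma with Benjamini-Hochberg adjustment over all genes), 2028 upward (11.5%) and 2087 downward (11.8%), and the median change over all genes was 0.01. Changes are differences of the deposited values, which were read as log2 intensities, and background was set at the 95th percentile of 612 negative control probe sets of each array; a group counted as above background when its mean exceeded the mean of that percentile over its arrays. The shares of 11.5% and 11.8% are the baseline for the counts below of list members that rose and fell from resistant to withdrawal. At 2-fold or more, 1668 genes were called (9.43%), 730 higher (4.13%) and 938 lower (5.3%). The 3 withdrawal arrays lay all above or all below the 3 resistant arrays for 38.9% of genes, all above for 19.5% and all below for 19.4%. Many of these differences reach into values under background, which have no measured size: with array values under the common background level of 7.88 raised to it, 356 genes rose and 431 fell 2-fold or more, 12 rose and 31 fell 8-fold or more, and 2 rose and 5 fell 32-fold or more. Against parental cells, 705 genes (3.99%) differed after withdrawal, 400 higher (2.26%) and 305 lower (1.72%), and withdrawal and parental arrays did not overlap for 23.4% of genes. Over all genes, resistant arrays correlated with withdrawal arrays at Pearson r of 0.977 to 0.978 and parental with withdrawal arrays at 0.992 to 0.994, beside 0.995 to 0.996 between arrays of 1 group. The median gene value lay between 6.99 and 7.08 on the 9 Caco2 arrays, and 43.4% to 47.7% of genes were above background on each.

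**Figure D1:**
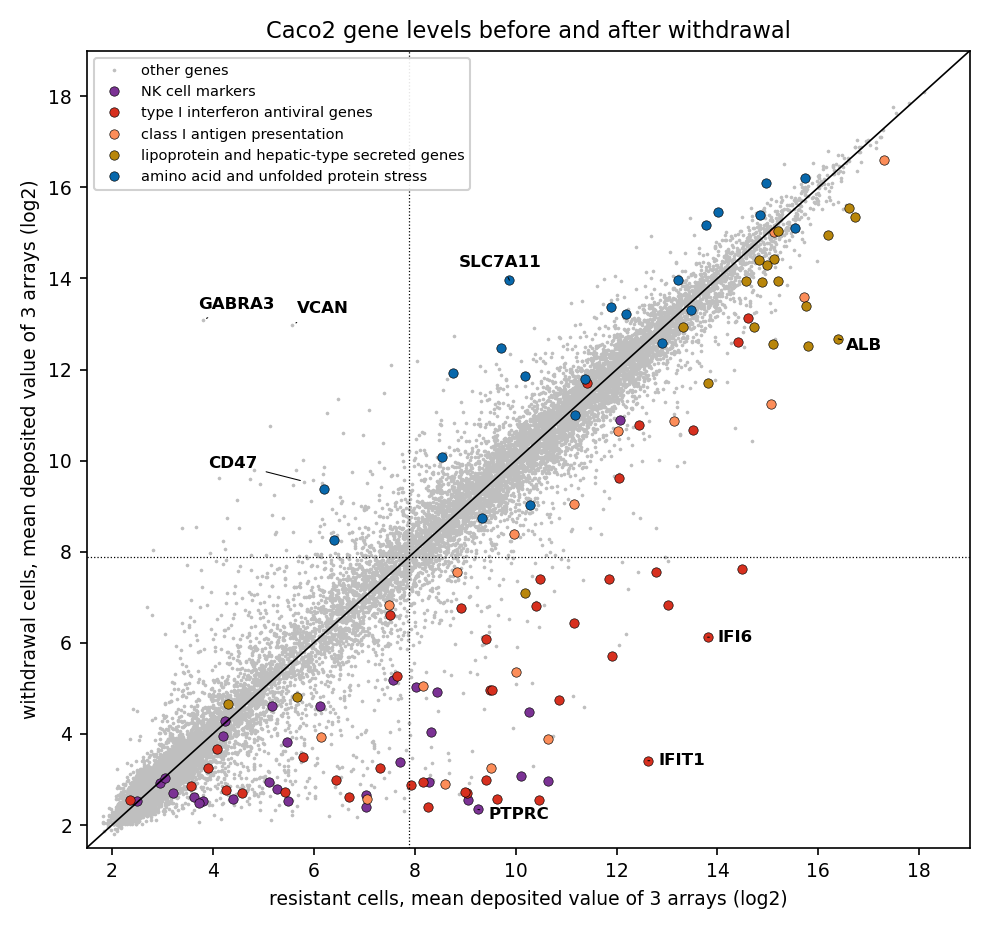
Mean deposited value of each gene in the 3 withdrawal arrays (vertical, log2) against the 3 resistant arrays (horizontal, log2), with 5 gene lists coloured, the diagonal of equal values and a dotted line at the common background level of 7.88. Most type I interferon, class I and NK genes lie under the diagonal, with IFIT1 at 12.62 in resistant against 3.41 in withdrawal cells, and GABRA3 lies farthest above it at 3.80 against 13.09.

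Transcripts of leukocyte marker genes were part of the difference. Of 30 measured NK cell markers, 22 fell with withdrawal and none rose, with a median change of -2.28 that became 0.00 with values under background raised to it. The number above background was 10 in resistant, 1 in withdrawal and 1 in parental cells, and the log2 of their summed linear intensity ran from 13.38 to 13.71 in the resistant arrays, 11.12 to 11.17 after withdrawal and 10.40 to 10.62 in parental cells. PTPRC, which encodes the pan-leukocyte phosphatase CD45, read 9.33, 9.27 and 9.16 in the resistant arrays, 2.47, 2.50 and 2.06 in the withdrawal arrays and 2.31, 2.43 and 2.62 in the parental arrays. NCAM1, the NK surface marker CD56, read 10.52, 9.89 and 10.38 before and 4.76, 4.69 and 3.98 after withdrawal. For both genes every resistant array was above background, and every withdrawal and parental array below it.

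PTPRC fell at least 2.40-fold (log2 change -6.91, SE 0.149, adjusted p = 7.07e-09) and NCAM1 at least 4.83-fold; a fold is written as at least where the lower group was near background, since its true level is then unknown. The chemokines CCL3 and CCL5 fell by 7.67 and 7.04, and the granule proteases GZMA, GZMB and GZMK changed by -6.52, -3.52 and -5.35. FCGR3A, the Fc receptor CD16 that binds cetuximab, went from 7.03 ± 0.428 (SD, n = 3) to 2.66 ± 0.279, under background in both groups. The T-cell receptor chain CD3E fell from 7.95 to 3.48 among 4 of 15 markers of T, B and myeloid cells that fell, while the B-cell marker MS4A1 was at background throughout. The 1 NK marker still above background after withdrawal was IL2RG, the common cytokine receptor chain, at 10.88 against 10.07 in parental cells. IL2RG made up most of the summed NK marker intensity in withdrawal and in parental cells. Of 14 colorectal epithelial markers 9 were above background in each group, and their summed intensity ran from 18.49 to 18.61 in resistant and 18.42 to 18.46 in withdrawal arrays. Which cells held these marker transcripts was not tested, nor was how much they contribute to the other differences. In bulk RNA fewer leukocytes cannot be told apart from less RNA per leukocyte.

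The interferon-induced antiviral genes had the lowest median change of the 33 gene lists. Of 42 type I interferon genes, all measured, 38 fell and none rose, with a median change of -3.83 beside 0.01 over all genes, where 11.8% of genes fell; with every value under background raised to the background level the median was -1.50. They were above background for 29 genes in resistant, 6 in withdrawal and 8 in parental cells. IFIT1, which binds viral RNA that lacks the cap methylation of host messages and whose promoter is shown above, read 12.64, 12.66 and 12.57 in resistant and 3.05, 3.98 and 3.21 in withdrawal arrays, beside 3.07, 3.04 and 2.99 in parental arrays. The 3 resistant arrays stood far above all 6 others, and IFIT1 fell at least 24.8-fold (log2 change -9.21, SE 0.211, adjusted p = 8.61e-09).

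ISG15, a ubiquitin-like modifier of antiviral proteins, read 12.05, 11.67 and 12.00 before withdrawal and 5.69, 5.56 and 5.86 after it, where parental arrays read 5.46, 5.97 and 5.70. UBE2L6, the conjugating enzyme for ISG15, fell at least 84.7-fold, from 14.48 ± 0.0951 to 7.62 ± 0.369 (SD, n = 3). The withdrawal arrays of UBE2L6 lay below the parental mean of 8.62, by 1.00 (adjusted p = 0.0170). Among 6 members kept above background by withdrawal cells, IFITM3, which blocks viral entry, fell from 13.51 to 10.68 and remained 1.72 above the parental value (adjusted p = 0.00110). The kinase EIF2AK2, which halts translation on double-stranded RNA, fell by 1.46, and the poly-ADP-ribosyltransferase PARP14 by 1.81. The members that did not pass were MX1, IFI44 and IFI44L, with values under background in every group, and PLSCR1, which changed by 0.30. Against parental cells 8 of the 42 genes were higher after withdrawal and 2 lower, where 2.26% of all genes were higher and 1.72% lower. These 10 calls became 4 to 12 over the alternative fits. Only 6 of the 42 were above background in withdrawal and 8 in parental cells.

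The apparatus that relays interferon also fell. Of 18 signalling genes 13 fell and none rose, with a median change of -0.76, or -0.43 with values under background raised to it. IRF9, the DNA-binding partner of the STAT proteins, read 12.35, 12.05 and 12.29 in resistant and 7.13, 7.80 and 6.65 in withdrawal arrays, a fall of at least 18.6-fold (adjusted p = 6.42e-07), and its parental mean was 6.52. IRF1, a transcription factor induced by interferon gamma, fell by 3.06 (SE 0.206). The receptor chains IFNAR2, IFNGR2 and IFNGR1 fell by 0.84, 0.68 and 0.48, all above background in every group. None of the 7 interferon genes measured was above background in any group; 1 of them, IFNG, passed the test at levels under background.

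Genes of peptide loading and class I presentation fell as a group. Of 17 genes 16 fell and none rose, the median change was -2.20 (-1.39 with values under background raised to it), and none passed the limma test against parental cells, where 3 had an unadjusted p under 0.05. PSMB9, a catalytic subunit of the immunoproteasome, read 10.74, 10.41 and 10.76 in the resistant arrays against 3.44, 4.16 and 4.05 after withdrawal. The peptide transporter subunits TAP1 and TAP2 fell by 5.71 and 6.27, each to below background, and tapasin (TAPBP), which bridges the transporter to class I, fell 14.2-fold. B2M, the light chain of every class I molecule, read 15.64, 15.61 and 15.92 in resistant, 13.59, 13.60 and 13.56 in withdrawal and 13.36, 13.11 and 13.31 in parental arrays, a fall of 4.40-fold (log2 change -2.14, SE 0.125, adjusted p = 1.79e-06). No resistant array of B2M overlapped with an array of either other group. PDIA3, a chaperone disulfide isomerase, was the member that did not pass, at -0.10.

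Of 18 interferon gamma response genes 15 fell and none rose, none passed the limma test against parental cells (3 at an unadjusted p under 0.05), with a median change of -1.95 that became 0.00 when values under background were raised to it, since 11 of the 18 were under background in resistant cells too. APOL1, an apolipoprotein that lyses trypanosomes, fell by 7.05, the guanylate-binding GTPase GBP1 by 5.54 and the chemokine CXCL9 by 5.25. IDO1, FCGR1A and WARS1 did not pass, and WARS1, a tryptophanyl-tRNA synthetase, was high in all groups at 15.04 and 15.02. In class II presentation only CTSS, a lysosomal cysteine protease, and CD74, the invariant chain, passed among 13 genes, with falls of 5.82 and 4.32. HLA-DRA, the alpha chain of HLA-DR, read 2.16 in resistant and 2.34 in withdrawal cells, and the class II transactivator CIITA 2.81 and 2.33, all under background. MSN, the cortical actin linker moesin, fell by 6.76; it is abundant in leukocytes.

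**Figure D2:**
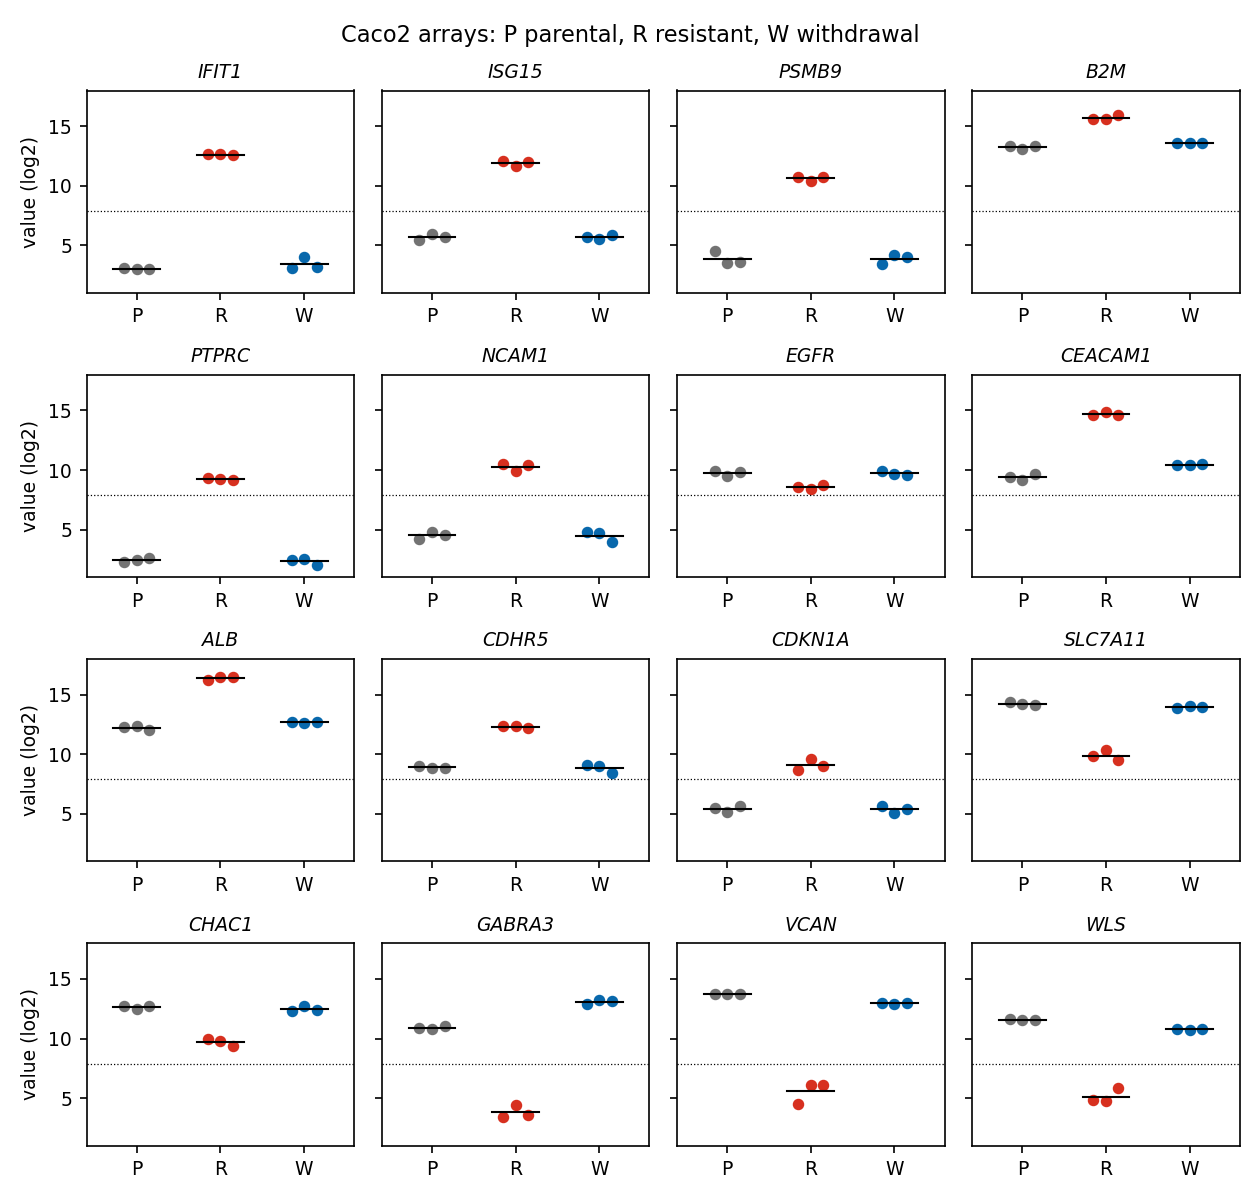
Deposited values (log2) of 16 genes on each Caco2 array, with 1 point per array, a bar at the mean of 3 and a dotted line at the common background level of 7.88. In the upper rows IFIT1, ISG15, PSMB9, B2M, PTPRC and NCAM1 are highest in the resistant arrays, with B2M far above background in every group. In the lower rows SLC7A11, CHAC1, GABRA3, VCAN and WLS are lowest in the resistant arrays.

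Ligands of NK-activating receptors moved in both directions. Of 20 genes 5 rose and 4 fell, where 11.5% of all genes rose and 11.8% fell, with a median change of 0.08. The 5 that rose are all ligands of NKG2D or NKp30. MICB, a stress-induced NKG2D ligand, read 8.04, 8.52 and 7.64 in resistant and 10.47, 9.76 and 9.57 in withdrawal arrays, beside 10.09, 10.30 and 10.23 in parental arrays, a rise of 3.64-fold (adjusted p = 6.61e-04). NCR3LG1, the NKp30 ligand B7-H6, rose by 1.39 and was still 1.10 below the parental mean (adjusted p = 0.00382). ULBP1, ULBP2 and ULBP3 rose by 2.34, 0.73 and 0.85, but withdrawal means of 7.61, 7.09 and 7.90 were under background. The members that fell were SLAMF7, CD48 and CLEC2B, which leukocytes also express and which were under background in both groups, and ICAM1, the ligand of LFA-1, which fell 1.83-fold from 13.50 to 12.63. The DNAM-1 ligands PVR and NECTIN2 changed by 0.05 (SE 0.106) and 0.11 (SE 0.117), and MICA by -0.04 (SE 0.141), and did not pass.

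Among 14 ligands of inhibitory receptors 6 fell and 3 rose. CEACAM1, an adhesion molecule that restrains NK and T cells, read 14.60, 14.83 and 14.60 in resistant arrays and 10.42, 10.41 and 10.49 in withdrawal arrays. It fell 18.8-fold (log2 change -4.24, SE 0.139, adjusted p = 4.34e-08) and stayed 1.03 above the parental mean of 9.41 (adjusted p = 0.00368). HLA-E, the ligand of the inhibitory NKG2A receptor, fell 4.83-fold, from 13.14 ± 0.179 to 10.87 ± 0.0780 (SD, n = 3). CD47, the signal that restrains phagocytes through SIRP alpha, was among the 3 that rose. It read 9.55, 9.37 and 9.71 after withdrawal, 6.21, 5.84 and 5.39 in resistant and 5.65, 5.25 and 5.06 in parental arrays. The withdrawal arrays were the only ones above background, so CD47 was at least 3.16-fold higher than in resistant cells (log2 change 3.73, adjusted p = 1.99e-06). NECTIN3 rose as well (limma, adjusted p = 0.00339), by 0.66 to 0.87 over the alternative fits. CD274, which encodes PD-L1, was under background in all groups.

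Defences against killing were lower after withdrawal for some genes. SERPINB9, the cytosolic inhibitor of granzyme B, read 9.23, 9.69 and 9.29 in resistant and 6.24, 5.29 and 5.54 in withdrawal arrays, which fell below background, a fall of at least 2.66-fold. SERPINB9 is also made by NK cells, whose markers fell in the same arrays. The caspase inhibitor XIAP fell 2.53-fold (adjusted p = 1.48e-05) and stayed 0.64 above parental (adjusted p = 0.0108), while the initiator caspase CASP8 fell by 1.16 and its regulator CFLAR by 0.73. The TRAIL decoy receptor TNFRSF10D rose by 0.95, and the TRAIL receptors TNFRSF10A and TNFRSF10B changed by -0.28 and -0.19 and did not pass. In all, 7 of 18 genes fell and 1 rose, where 11.8% of all genes fell and 11.5% rose. Of 17 inflammatory caspases and gasdermins 6 fell and 1 rose, with CASP4, the sensor of intracellular lipopolysaccharide, alone among the 6 above background in resistant cells; it fell from 9.50 to 7.81, under its parental mean of 9.52 (adjusted p = 0.00156).

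Complement genes fell from high values in resistant cells. Of 14 genes 9 fell and 2 rose, with a median change of -0.72, or -0.25 with values under background raised to it. C3, the component on which the complement pathways converge, read 10.94, 10.67 and 10.61 in resistant and 4.03, 3.95 and 3.91 in withdrawal arrays, and C1S, a protease of the classical pathway, fell at least 29.8-fold. C2, a component that C1S cleaves, read 13.42, 13.22 and 12.94 in resistant, 9.89, 9.95 and 9.84 in withdrawal and 7.06, 5.71 and 6.50 in parental arrays. The groups of C2 did not overlap, and the withdrawal arrays lay between the others, 3.30 below resistant and 3.47 above parental cells. The factor CFB lay between in the same way, 1.76 below and 1.34 above. The 2 that rose were CD55, which dissociates convertases on the cell surface, by 1.19, and the regulator C4BPA by 0.95.

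Of 19 NF-kappaB and inflammatory genes 9 fell and none rose. The chemokine CCL20 fell 5.20-fold and the cytokine IL32 3.54-fold, while the feedback regulators TNFAIP3 and NFKBIA fell by 0.79 and 0.65. TNFAIP3 remained above parental cells, at 13.37 against 12.77 (adjusted p = 0.0122). IL6 and CXCL8 were under background in all groups.

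The target of cetuximab rose. EGFR read 8.61, 8.38 and 8.72 in resistant and 9.93, 9.68 and 9.60 in withdrawal arrays, beside 9.93, 9.53 and 9.82 in parental arrays. Every withdrawal array was above every resistant array, and the change was 2.25-fold (log2 1.17, SE 0.153, adjusted p = 4.07e-04), with -0.02 against parental cells (adjusted p = 0.972). ERBB3, its dimerisation partner, fell by 0.51 (adjusted p = 0.0170), and the ligand NRG1 rose by 2.86 at levels under background. The other 8 of 11 ErbB genes did not pass. Of 19 genes of ERK feedback and AP-1 output 6 rose and 7 fell, where 11.5% of all genes rose and 11.8% fell. The feedback inhibitors SPRY2 and SPRY4 rose by 1.31 and 1.02, with EPHA4, an ephrin receptor, at 1.46 and ETV5, an ETS factor, at 0.98. The AP-1 subunit FOS read 13.55, 13.44 and 13.40 in resistant and 12.15, 11.95 and 11.99 in withdrawal arrays, a fall of 2.70-fold that left it 1.02 above parental cells (adjusted p = 0.00278). FOSL1 fell by 1.71, the immediate early gene IER3 by 1.90 and EGR1 by 0.71, while MYC and CCND1 changed by -0.02 and 0.07 and did not pass.

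Genes of plasma proteins that hepatocytes and enterocytes secrete fell almost as a block. Of 20 measured genes 18 fell and none rose; the median change was -1.15, the same with values under background raised to it. ALB, serum albumin, read 16.25, 16.48 and 16.46 in resistant arrays, 12.70, 12.60 and 12.72 in withdrawal arrays and 12.26, 12.37 and 12.05 in parental arrays. No array of one group overlapped with the resistant ones, and ALB fell 13.2-fold (log2 change -3.72, SE 0.124, adjusted p = 5.20e-08). Alpha-fetoprotein (AFP) fell 9.75-fold, the chylomicron protein APOA4 at least 4.59-fold and the fibrinogen chain FGB by 1.80. SERPINA1, the elastase inhibitor alpha-1-antitrypsin, read 15.78, 15.80 and 15.66 before and 13.42, 13.44 and 13.32 after withdrawal, and stayed 1.87 above parental cells (adjusted p = 2.11e-05). APOC3, an inhibitor of lipoprotein lipase, likewise fell by 2.11 and stayed 2.03 above parental. In all 5 of the 20 were above parental after withdrawal (2.26% of all genes) and none below. APOE and AMBP did not pass.

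The brush border list was less uniform: 8 of 28 genes fell and none rose, with 9 above background in resistant and 6 in withdrawal cells. SLC2A2, the basolateral glucose transporter GLUT2, fell at least 10.2-fold, and CDHR5, a protocadherin that links microvilli, fell 11.1-fold, from 12.32 ± 0.106 to 8.85 ± 0.365 (SD, n = 3) beside 8.90 ± 0.0924 in parental cells. The peptidase ANPEP fell by 3.23, the fatty acid binding protein FABP1 by 1.21 and the microvillar actin bundler VIL1 by 1.15. DPP4, another brush border peptidase, was at 15.06 and 15.01, sucrase-isomaltase (SI) was under background in all groups, and the intestinal transcription factor CDX2 changed by 0.19; none of them passed. Of 21 goblet and secretory genes 5 fell and none rose, led by AGR2, a protein disulfide isomerase needed for mucin folding, with 12.49, 12.31 and 12.47 in resistant and 7.31, 8.10 and 7.24 in withdrawal arrays. AGR2 fell at least 19.9-fold and ended 2.89 under its parental mean (adjusted p = 1.23e-04). The trefoil peptide TFF3 fell by 1.31, and the goblet mucin MUC2 was under background throughout.

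The highest share of rising genes in the 33 lists was in the list of amino acid and unfolded protein stress genes. Part of this list is controlled by ATF4, which acts when amino acids or protein folding are limiting. Of 22 genes 16 rose and 2 fell, with a median change of 1.09 (0.89 with values under background raised to it) beside 0.01 over all genes, where 11.5% of genes rose, and none passed the limma test against parental cells, where 2 had an unadjusted p under 0.05. SLC7A11, the cystine importer, read 9.83, 10.33 and 9.48 in resistant arrays and 13.90, 14.05 and 13.93 in withdrawal arrays, with 14.39, 14.20 and 14.13 in parental arrays. It rose 17.0-fold (log2 change 4.08, SE 0.195, adjusted p = 4.88e-07). CHAC1, which degrades glutathione and whose promoter is shown above, read 9.99, 9.75 and 9.40 and 12.28, 12.73 and 12.38, a rise of 6.72-fold. The resistant arrays were the low ones for both genes, with no overlap.

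DDIT4, an inhibitor of mTORC1, rose 9.02-fold, SESN2, a leucine sensor, by 3.18 and DDIT3, which encodes CHOP, by 1.86. The amino acid enzymes ASNS, PSAT1, PHGDH and MTHFD2 rose by 1.49, 1.40, 0.75 and 1.45, and ATF4 itself by 1.04 (SE 0.127, adjusted p = 2.55e-04). The transporters SLC7A5 and SLC3A2, the subunits of 1 exchanger of large neutral amino acids, rose by 1.13 and 0.55. The 2 that fell were ATF3, by 1.25, and the endoplasmic reticulum chaperone HSPA5, by 0.43. XBP1, HERPUD1, SDF2L1 and PPP1R15A did not pass, with changes of -0.30, -0.17, -0.59 and -0.16.

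**Figure D3:**
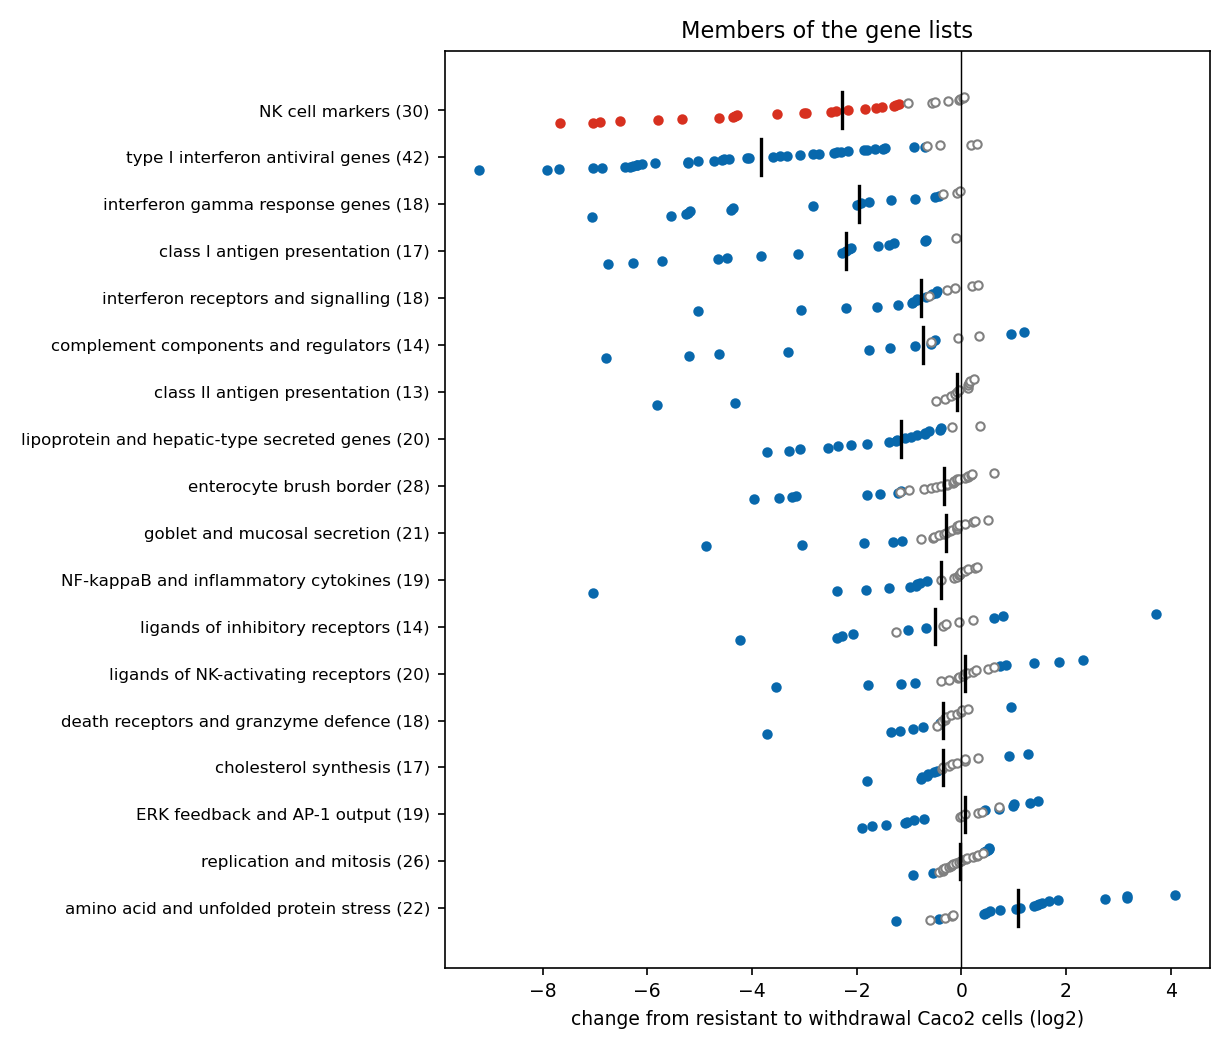
Change from resistant to withdrawal (log2) of each measured member of 18 gene lists, with the number of members in brackets; filled points passed the test, open points did not, red marks the NK markers and the vertical bars are medians. The interferon, class I and hepatic-type lists lie left of 0 with medians of -3.83, -2.20 and -1.15, and the stress list lies right of it at 1.09.

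The genes with the largest rises by log2 difference were all under background in resistant cells, so their order is not one of measured size. GABRA3, a subunit of the GABA-A chloride channel, read 3.42, 4.45 and 3.53 in resistant and 12.87, 13.22 and 13.17 in withdrawal arrays, beside 10.89, 10.82 and 11.03 in parental arrays. It was under background in resistant cells, rose at least 36.8-fold (log2 change 9.29, SE 0.245, adjusted p = 1.71e-08) and ended 2.17 above parental cells (adjusted p = 0.00139). VCAN, the matrix proteoglycan versican, read 4.53, 6.13 and 6.05 in resistant and 13.02, 12.91 and 13.02 in withdrawal arrays, a rise of at least 34.3-fold, with -0.74 against parental cells (adjusted p = 0.351). WLS, the carrier that takes WNT ligands to the cell surface, rose at least 7.36-fold, from 5.12 ± 0.605 to 10.76 ± 0.0457 (SD, n = 3). For these genes the 3 resistant arrays lay below all 6 other arrays.

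Among the other 12 of the 15 largest log2 differences were the collagen lysyl hydroxylase PLOD2 (log2 change 4.87), the heparan sulfate sulfatase SULF2 (at least 18.2-fold), the acyltransferase LPCAT2 (log2 change 4.79), NIBAN1 (at least 3.76-fold), the RNA-binding protein RBMS3 (log2 change 5.23), the transcription factor TFAP2C (5.13) and the orphan cytochrome P450 CYP4X1 (4.88). PLPP4, LIX1 and TFAP2C, all under background in parental cells, ended above them by 2.85, 2.24 and 2.21; MED12L, PAMR1 and FAM131B, with rises of 4.86, 4.56 and 4.47, did not pass against parental cells.

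Withdrawal cells were not parental cells in every gene. At 2-fold or more 146 genes were above and 131 below parental (68 and 34 with values under background raised to it), against 1075 and 858 for resistant cells (524 and 379). CD47 was at least 3.45-fold higher than in parental cells (log2 change 4.22, SE 0.221, adjusted p = 1.81e-05), with parental and resistant arrays both under background. TLR7, an endosomal receptor of single-stranded RNA, was likewise above background after withdrawal alone. It read 9.56, 9.49 and 9.47 after withdrawal, 6.15, 6.19 and 6.12 in resistant and 6.39, 6.75 and 6.12 in parental arrays. GPR83, a neuropeptide receptor, rose by 4.11 to end 3.19 above parental. ERVH48-1, an endogenous retroviral envelope gene that encodes suppressyn, was already above parental in resistant cells, by 1.93, and rose a further 1.13. RIPOR2 was under background in parental cells (7.17) and read 8.89 in resistant and 9.78 in withdrawal cells on average, and MAP3K21 was above background after withdrawal alone, at 8.83. FAM171B, a transmembrane protein gene, ended 2.59 above parental. C2 and ASGR2, a subunit of the hepatic asialoglycoprotein receptor, fell with withdrawal but stayed 3.47 and 2.59 above.

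Genes under parental level fell into different orders. MGST1, a membrane-bound glutathione transferase, read 11.08, 11.24 and 11.17 in parental, 5.45, 4.48 and 5.34 in resistant and 5.86, 6.02 and 6.36 in withdrawal arrays, under background in both challenged groups (withdrawal minus parental -5.08, SE 0.242, adjusted p = 1.43e-05). P2RY1, a receptor of ADP, and CDCA7L, a MYC-interacting protein, were also under background in both, at -3.48 and -3.43 from parental. Parental cells were themselves near background for P2RY1 and CDCA7L, so these differences have no measured size. The fall from parental was at least 9.02-fold for MGST1 but only at least 1.01-fold for CDCA7L, and P2RY1 had no bound. PSD3, an exchange factor of ARF6, was at 8.99 in parental cells and under background in both other groups. PLAC8, a cysteine-rich protein, read 11.40, 11.66 and 11.40 in parental, 12.84, 12.86 and 12.63 in resistant and 8.73, 8.52 and 8.32 in withdrawal arrays. Withdrawal arrays of PLAC8 were the lowest group and resistant arrays the highest, as for AGR2 and for MT2A, a metal-binding metallothionein.

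MT2A fell at least 6.86-fold from resistant cells and ended 2.52 under parental (adjusted p = 2.06e-05). Of 10 metallothionein and zinc transport genes 6 were below parental after withdrawal and none above, where 1.72% of all genes were below. Over the alternative fits 4 to 8 passed against parental cells. Only 5 of the 10 were above background in parental and 1 in withdrawal cells, so most of these differences have no measured size. From resistant to withdrawal 3 fell and 1 rose. MT1X went from a parental mean of 10.28 through 8.32 to 7.81, and its change from resistant cells did not pass (adjusted p = 0.141). The zinc exporter SLC30A1 was the member that rose, by 0.51.

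**Figure D4:**
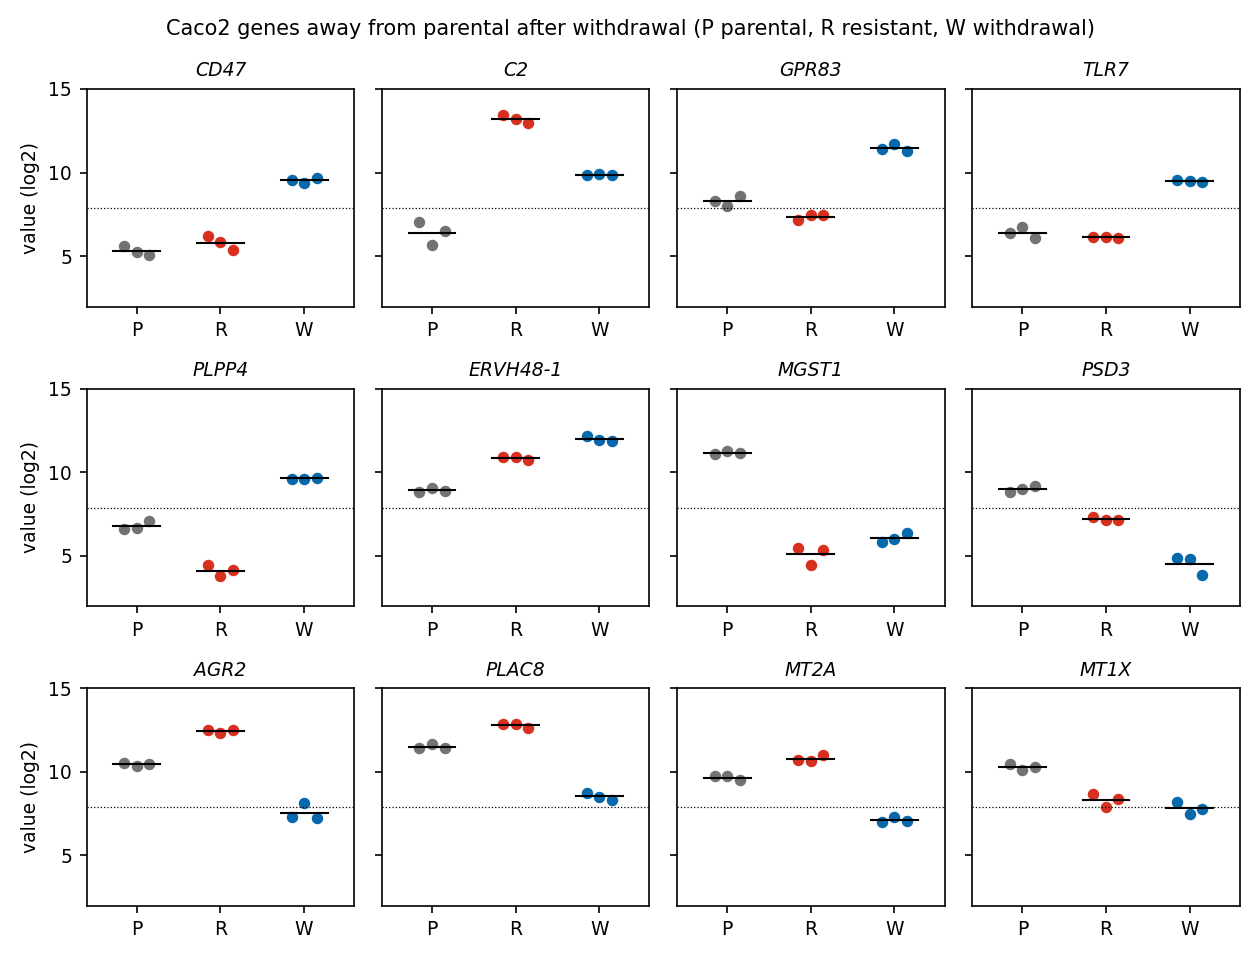
Deposited values (log2) of 12 genes with large differences between withdrawal and parental Caco2 cells, 1 point per array, a bar at the mean of 3 and a dotted line at the background level of 7.88. CD47, GPR83, TLR7, PLPP4 and ERVH48-1 are highest in the withdrawal arrays; C2 lies between the other groups; AGR2, PLAC8 and MT2A are lowest in them, MT1X is under its parental values, and PSD3 and MGST1 are low in resistant and withdrawal arrays.

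The replication and mitosis list moved in both directions. Of 26 genes 5 rose and 2 fell, where 11.5% of all genes rose and 11.8% fell, with a median change of -0.02. MKI67, the proliferation antigen, fell by 0.53 and CDK1, the mitotic kinase, rose by 0.52. CDKN1A, the cyclin-dependent kinase inhibitor p21, read 8.69, 9.59 and 8.99 in resistant, 5.66, 5.03 and 5.41 in withdrawal and 5.47, 5.16 and 5.66 in parental arrays, and only the resistant arrays were above background. Caco2 cells are known to lack functional p53. Of 13 genes listed as p53 targets 3 fell and 2 rose, while MDM2 changed by -0.06 and did not pass. Of 18 WNT target and stem genes 4 fell and 1 rose: LEF1, a nuclear partner of beta-catenin, read 6.67, 6.81 and 7.47 in resistant and 10.40, 10.86 and 10.41 in withdrawal arrays, whereas AXIN2, LGR5 and ASCL2 changed by 0.32, -0.23 and 0.08 and did not pass. SOX9, a progenitor factor of the crypt, fell 2.20-fold.

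In metabolism, 7 of 17 cholesterol synthesis genes fell and 2 rose; INSIG1, which retains the SREBP escort protein, fell by 1.80, HMGCS1, an enzyme of the mevalonate pathway, by 0.64, and NSDHL, a sterol dehydrogenase, rose by 1.28. Of 22 hypoxia and glycolysis genes 8 fell and 2 rose, with ALDOC, a brain-type aldolase, at -1.76, NDRG1 at -1.38 and VEGFA, the angiogenic factor, at 0.59. Of 26 detoxification genes 11 fell and 5 rose. The retinal dehydrogenase ALDH1A1, the drug exporter ABCC3 and the quinone reductase NQO1 changed by -2.11, -1.85 and -0.92, and CYP1A1, the aryl hydrocarbon receptor target, rose by 1.58. Against parental cells 6 of the 26 were higher (2.26% of all genes) and 1 lower (1.72%), and GSTA1, a glutathione transferase, was between the other groups at 8.58, with 10.08 in resistant and 7.31 in parental cells.

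Of 25 TGF-beta and matrix genes 5 rose and 3 fell, where 11.5% of all genes rose and 11.8% fell. VIM, the intermediate filament vimentin, rose 2.81-fold and ended 0.78 under parental (adjusted p = 0.0200), LTBP1, which anchors latent TGF-beta, rose by 1.81 and FN1, fibronectin, by 0.67. ZEB1, a repressor of E-cadherin, fell by 1.99 with all means under background, and CDH1, E-cadherin itself, changed by 0.07 and did not pass. Of 23 junction genes 6 rose and 5 fell, with the desmosomal cadherin DSC2 at 1.29 and the claudin CLDN1 at -1.13. ITGA6 and ITGB4, the chains of the laminin receptor of hemidesmosomes, fell by 1.81 and 1.56 among 3 falls and 1 rise in 14 integrin genes. Of 10 keratins 1 passed: KRT23, a type I keratin, read 8.10, 8.12 and 8.10 in resistant and 10.40, 10.11 and 10.19 in withdrawal arrays and ended 1.61 above parental (adjusted p = 1.53e-04). Of 7 ribosomal protein genes 1, RPS6, passed at 0.44.

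Many genes changed by a different amount in Caco2 than in the other lines, whether or not they were called in Caco2. In a fit of all 27 arrays the change in Caco2 differed from that in LIM1215 for 4667 genes (26.4%) and from that in SW48 for 4231 (23.9%); it was above both for 1033 genes and below both for 1029. Against LIM1215 13.4% of genes were above and 13.0% below, and against SW48 11.7% and 12.2%. Where a group is under background, a difference between lines is one of deposited values and not of measured levels. GABRA3 was under background in resistant and withdrawal cells of both other lines, and its change was above theirs by 8.71 and 9.30 (adjusted p = 4.24e-15 and 1.04e-15). VCAN, PLPP4, RBMS3, FAM131B, SULF2, PLOD2 and CYP4X1 were the other genes with the largest differences in that direction. CYP4X1, under background in resistant Caco2 cells, rose there by 4.88 and changed by -2.62 in LIM1215, a difference of 7.50 (adjusted p = 7.21e-15).

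Below both other lines was IFIT1, under background in withdrawal Caco2 cells and in both SW48 groups, with a change of -9.21 in Caco2, -0.72 in LIM1215 and -2.42 in SW48 (differences -8.49 and -6.79, adjusted p = 5.42e-05 and 6.55e-04). C3, IFIH1, a sensor of viral RNA, IL22RA1, the receptor of IL-22, ISG15 and IFI6 also fell further in Caco2 than in both lines. C3 was under background in resistant and withdrawal cells of both other lines. Of the 42 type I interferon genes the Caco2 change was below that of LIM1215 for 24 and above it for 1, and below that of SW48 for 19 and above it for none. Their median change was -1.26 in LIM1215 and -1.57 in SW48. An untreated LIM1215 array stands apart from its group in interferon genes and enters the spread of this fit. Without it 5271 genes differed from LIM1215 and 4827 from SW48. OAS2, an antiviral oligoadenylate synthetase, differed from LIM1215 by -3.86 (limma, adjusted p = 0.0478), with an adjusted p of 2.51e-10 without that array. The limma call was lost with the arrays of the 2 lines alone (adjusted p = 0.108) and with a replicate block (0.0556). It was also lost with any 1 array of the compared groups left out, and kept with median centring and with the filter on dim genes.

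For the hepatic-type genes the Caco2 change was below that of LIM1215 for 15 of 20 and above it for none, and below that of SW48 for 12 and above it for 1, SERPINA1, which fell in SW48 by 5.78. Their median change was -0.02 in LIM1215, where 1 fell and 1 rose, and 0.00 in SW48, where 2 fell and none rose. Stress genes rose in every line, with 21 of 22 rising in LIM1215 (13.6% of all genes) and 14 in SW48 (11.1%). The Caco2 change was above that of LIM1215 for 3 of the 22 and below it for 8, and above that of SW48 for 9 and below it for 4. ERK output separated Caco2 from LIM1215: 17 of 19 genes rose in LIM1215, and the Caco2 change was lower for 15 of 19 and higher for none. For NK markers the Caco2 change was below that of SW48 for 17 of 30 and above it for 1, and against LIM1215 it was below for 6 and above for 6. PTPRC itself changed by 3.47 in SW48, against -5.76 in LIM1215. Its mean was 5.87 in SW48 resistant cells, under background. In SW48 withdrawal cells, grown without NK cells, it was 9.34, above background. For class II genes the Caco2 change was above that of LIM1215 for 10 of 13 and below it for none, and above that of SW48 for 5 and below it for 1, CTSS, with a difference of -5.26. All of the 13 but CTSS and CD74 were under background in Caco2.

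**Figure D5:**
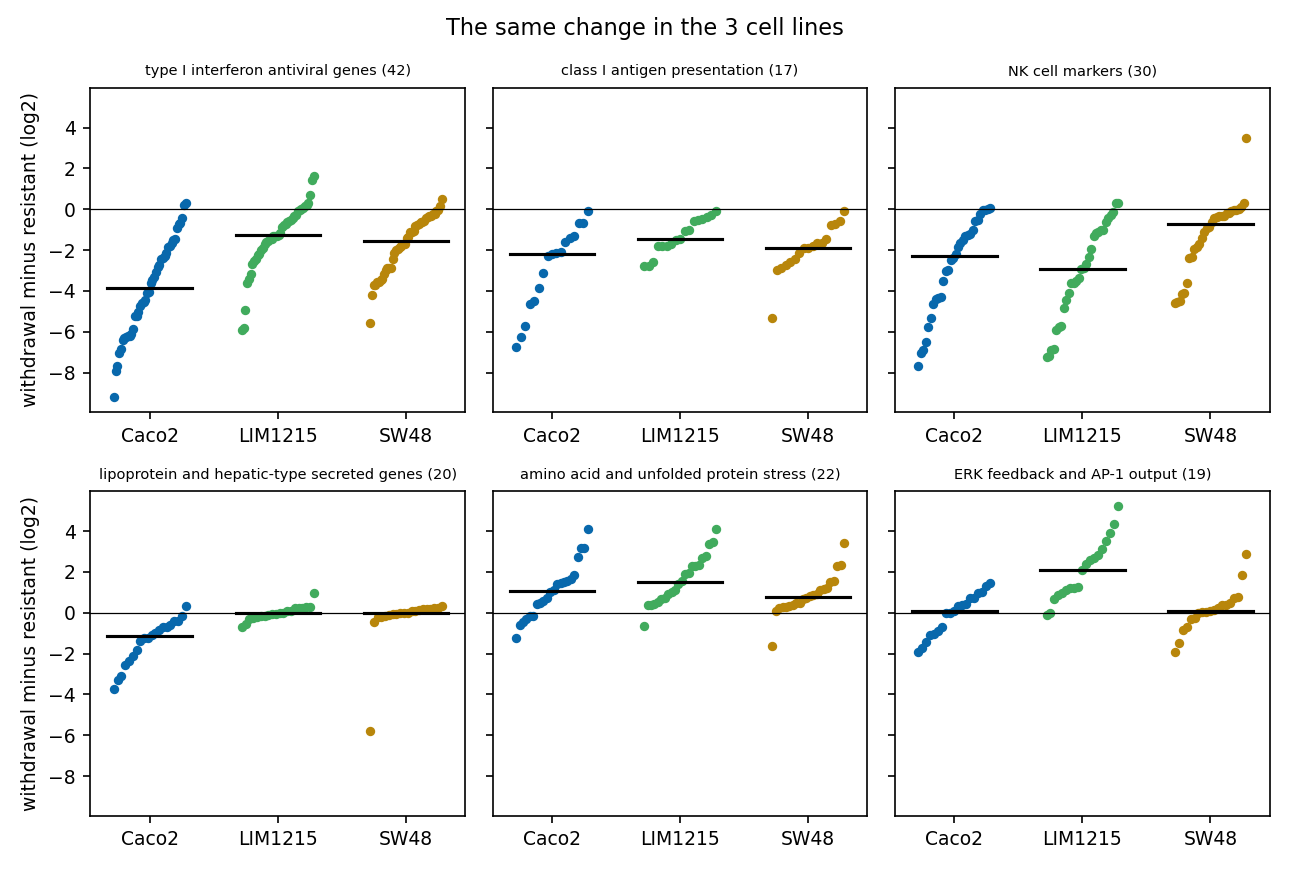
Withdrawal minus resistant (log2) of every measured member of 6 lists in Caco2, LIM1215 and SW48, 1 point per gene, with a bar at the median. The hepatic-type list is low in Caco2 (median -1.15) and near 0 in the others, and the ERK list is high in LIM1215 (median 2.10) and near 0 in Caco2.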

How the data were processed

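Gene expression was measured in 27 samples of 3 colorectal cancer lines on microarrays, from 250 ng of RNA per the labels' protocols. The deposited series table holds 1 value per probe set and array. Its scale is not given in the sources used here, nor are the background correction and normalization behind it; from their range the deposited values were read as log2 intensities, and a fold assumes that base. Of 21448 transcript probe sets, 17709 carried 1 gene symbol in the platform annotation and 3739 carried none; for the 20 genes with several, the probe set with the highest mean was kept, which left 17687 genes. The 2903 control probe sets were left out apart from the 612 negative controls.

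Changes were tested with limma 3.58.1 in R 4.3.3 (lmFit and eBayes) on the 9 Caco2 arrays, with Benjamini-Hochberg adjustment over all 17687 genes and a threshold of 0.05. Differences between lines came from 1 fit of all 27 arrays. Other steps used Python 3.11.15 with pandas 2.3.3, and the fit was tested on simulated data. Precision is limited by 3 arrays per group. Named genes were the 15 largest changes in each direction, the 10 largest against parental cells, the 8 largest differences from both other lines, up to 5 called members of each of 33 lists, and a fixed set of genes of interferon, NK recognition, EGFR and intestinal identity; each large change had to have groups that did not overlap and a higher group above background. Members and lists were chosen with earlier results of these data known, and some values outside this rule were chosen after they were seen. The alternatives were other normalizations, filters, array sets and spread estimates, a replicate block and leaving out each array. Same-numbered samples of the Caco2 groups did not deviate together (r from -0.028 to 0.049), so the numbers were not taken as pairs.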

Additional observations from a re-analysis of the deposited data

Results flagged for a closer look

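Some changes from resistant to withdrawal differed between Caco2 and the other lines by limma's test of the difference itself, in a fit of all 27 arrays. This was so for 4667 genes against LIM1215 and 4231 against SW48. GABRA3 changed by 8.71 more in Caco2 than in LIM1215 and by 9.30 more than in SW48. The corresponding differences were 6.99 and 7.02 for VCAN, 7.50 and 4.84 for CYP4X1, 5.50 and 5.42 for PLPP4, 5.37 and 5.46 for RBMS3, 5.99 and 4.80 for FAM131B, 4.51 and 5.71 for SULF2, and 5.37 and 4.53 for PLOD2.

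In the other direction the Caco2 change minus that of LIM1215 and of SW48 was -8.49 and -6.79 for IFIT1, -6.48 and -6.93 for C3, -6.08 and -5.04 for IFIH1, -6.43 and -4.66 for IL22RA1, -5.62 and -5.42 for ISG15, -6.07 and -4.83 for IFI6, and -3.86 and -6.60 for OAS2. The OAS2 difference from LIM1215 lost its call in most alternatives. For PTPRC, the leukocyte phosphatase gene, the corresponding differences from LIM1215 and SW48 were -1.15 and -10.38. Resistant and withdrawal groups of 3 were not examined for single samples far from the others.

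Outside the named genes, 497 of the 3739 transcript probe sets with no gene name (13.3%) also passed the test between withdrawal and resistant Caco2 cells, 257 higher and 240 lower. Of these, 339 were above background in the higher group, and their changes ran from -6.34 to 4.15.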

How the results depend on the processing

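The count of genes that changed from resistant to withdrawal, 4115, ran from 3716 to 4968 over the alternative array sets, normalizations, filters and spread estimates, and from 3245 to 3780 with 1 array left out (1550 to 1791 higher, 1689 to 1989 lower). Of 169 named genes called there, 155 were called in every alternative run for them (15, or 14 for a gene that the filter on dim genes left out), 14 lost the call in 1 or more (among them DUSP6, ERBB3, MKI67, RPS6, ULBP2 and VEGFA), and none changed direction. The count against parental cells was less stable. It went from 705 to 1219 (621 higher, 598 lower) with all arrays but the untreated LIM1215 one that stands apart, an alternative chosen after seeing the data, to 1255 (653 higher, 602 lower) with an intensity trend and robust spread, and to 1071 with a filter on dim genes, where 478 were lower. With 1 array left out it fell to between 347, without withdrawal replicate 1, and 457, without parental replicate 1 (204 to 265 higher, 143 to 192 lower). Over these alternatives up to 1 class I gene, 1 interferon gamma response gene and 3 stress genes passed against parental cells. Leaving out 1 array gave 3872 to 4281 genes for resistant against parental cells, 4203 to 4414 for the difference from LIM1215 and 3854 to 4131 for that from SW48. With the replicate number as a block, 3880 genes changed from resistant to withdrawal and 530 differed from parental cells. Of 990 counts within lists, 57 moved by more than 1.5 times. Signal over background limits the rest: a gene under background in a group has only a bound there. The cause of these shifts was not tested.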
